A study of Mus musculus with 18 samples.

Results

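The genes described here are 10 genes of T lineage and innate lymphoid priming, *Notch1*, *Hes1*, *Gata3*, *Tcf7*, *Bcl11b*, *Tox*, *Cd3e*, *Cd3g*, *Zbtb16* and *Ikzf1*. They were taken by symbol from the expression tables of MPPs, CD115- CDPs and CLPs, which together list 19919 genes. Each had a listed value in all 18 libraries, which for *Cd3e* and *Cd3g* was 0 in some of them. Multipotent progenitors (MPPs), common DC progenitors lacking CD115 (CD115- CDPs) and common lymphoid progenitors (CLPs) had been sorted from the bone marrow of C57BL/6 mice aged 6 to 8 weeks, and polyadenylated RNA was sequenced. Each population had 3 libraries of *Trim33* fl/fl mice (WT) and 3 labelled KO, from *Trim33* fl/fl Cre-ERT2 mice. All mice thus carried the floxed allele. Tamoxifen, given before the bone marrow was taken, activates the recombinase in all tissues rather than in 1 lineage, and its action removes exons 2 to 4 of *Trim33*. The authors' legend to a figure of these RNA data names tamoxifen-treated mice of both genotypes. Values are FPKM, reads per kilobase of transcript scaled to the reads mapped, at an estimated 19.22 to 21.27 M mapped reads per library.

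Before T lineage commitment, lymphoid progenitors receive Notch ligand signals in the thymus. The cleaved Notch receptor enters the nucleus, joins the DNA-binding protein RBPJ and activates targets such as *Hes1*, and the transcription factors TCF-1, GATA3 and BCL11B then establish the T cell programme, which includes the CD3 chains of the T cell receptor. Innate lymphoid cells and natural killer cells lack that receptor but share several of these factors, TOX and PLZF among them, and Ikaros acts across lymphoid development. In bone marrow progenitors low levels of such genes ahead of commitment are known as priming.

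The deleted gene gave a limited check of the labels, since FPKM were summed over the whole gene. *Trim33* was 10.42, 10.12 and 8.78 FPKM in WT and 9.71, 11.66 and 4.80 FPKM in KO-labelled MPPs. It was 14.30, 15.23 and 8.27 against 9.64, 8.28 and 4.03 FPKM in CD115- CDPs, and 12.36, 7.01 and 8.86 against 7.52, 5.60 and 7.66 FPKM in CLPs. The genotypes overlapped in all 3 populations, and in MPPs the library labelled KO 2 was above all WT libraries, so that the libraries are named by their labels and every direction below is that of the label. Within same-numbered pairs the KO-labelled library was lower in 2 of 3 pairs in MPPs and in 3 of 3 pairs in both CD115- CDPs and CLPs. The log2 fold change was -0.74 in CD115- CDPs (limma adjusted p = 0.528, and 0.0258 with the replicate number as a block) and -0.37 in CLPs (0.255, and 0.0727 with the block). Of the sort genes, *Il7r* (encoding CD127) was 32.56 to 63.03 FPKM in WT CLPs and 5.27 to 5.87 FPKM in WT MPPs. WT CD115- CDPs, gated as negative for CD115 and CD127, held transcripts of both, at 39.11 to 136.77 FPKM for *Csf1r* and 5.34 to 20.60 FPKM for *Il7r*. Replicate 3 of the CD115- CDPs stood apart in both genotypes: 7 neutrophil lineage markers summed to 3554.62 and 3684.67 FPKM, against 600.15 to 829.21 FPKM in the other 4 libraries.

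*Cd3e* and *Cd3g* encode the epsilon and gamma chains of CD3 and lie close together on chromosome 9 of GRCm38. Their upstream regions are shown because both genes had lower means under the KO label, at low levels, although *Cd3g* overlapped between genotypes in CLPs. The 250 bases before the RefSeq start sites (GRCm38.p6, minus strand) read, with the core of the RBPJ motif, TGGGAA, in capitals:
Cd3e, chr9:45009612-45009861: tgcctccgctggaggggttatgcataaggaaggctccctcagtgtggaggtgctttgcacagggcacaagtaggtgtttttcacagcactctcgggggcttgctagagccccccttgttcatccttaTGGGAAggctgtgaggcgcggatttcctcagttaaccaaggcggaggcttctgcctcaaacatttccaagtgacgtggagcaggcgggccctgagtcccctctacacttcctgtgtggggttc
Cd3g, chr9:44980432-44980681: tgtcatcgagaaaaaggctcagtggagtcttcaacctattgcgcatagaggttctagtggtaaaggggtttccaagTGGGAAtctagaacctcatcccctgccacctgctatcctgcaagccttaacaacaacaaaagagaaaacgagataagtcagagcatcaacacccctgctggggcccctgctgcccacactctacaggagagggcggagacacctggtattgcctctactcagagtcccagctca
Each window held the core 1 time, starting 123 bases before the start site in *Cd3e* and 174 bases before it in *Cd3g*. Start sites are those of the promoter entries. The *Cd3e* gene interval given below ends at 45009663, so the last bases of its window lie inside that interval. Counting both strands (TGGGAA or TTCCCA), 21.59% of 32841 mouse promoter windows of this length held it, and of the 7 members with an entry in the promoter table, the others did not. The E box CACCTG, present in 17.22% of windows, occurred 2 times in *Cd3g* and not in *Cd3e*, and the GATA motif AGATAA (9.99% of windows) occurred 1 time in *Cd3g*. The core motif CTTTGA of TCF and LEF factors (13.83% of windows) occurred in neither, and 1 time in *Bcl11b*. These matches describe the letters of the windows only.

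**Figure D1:**
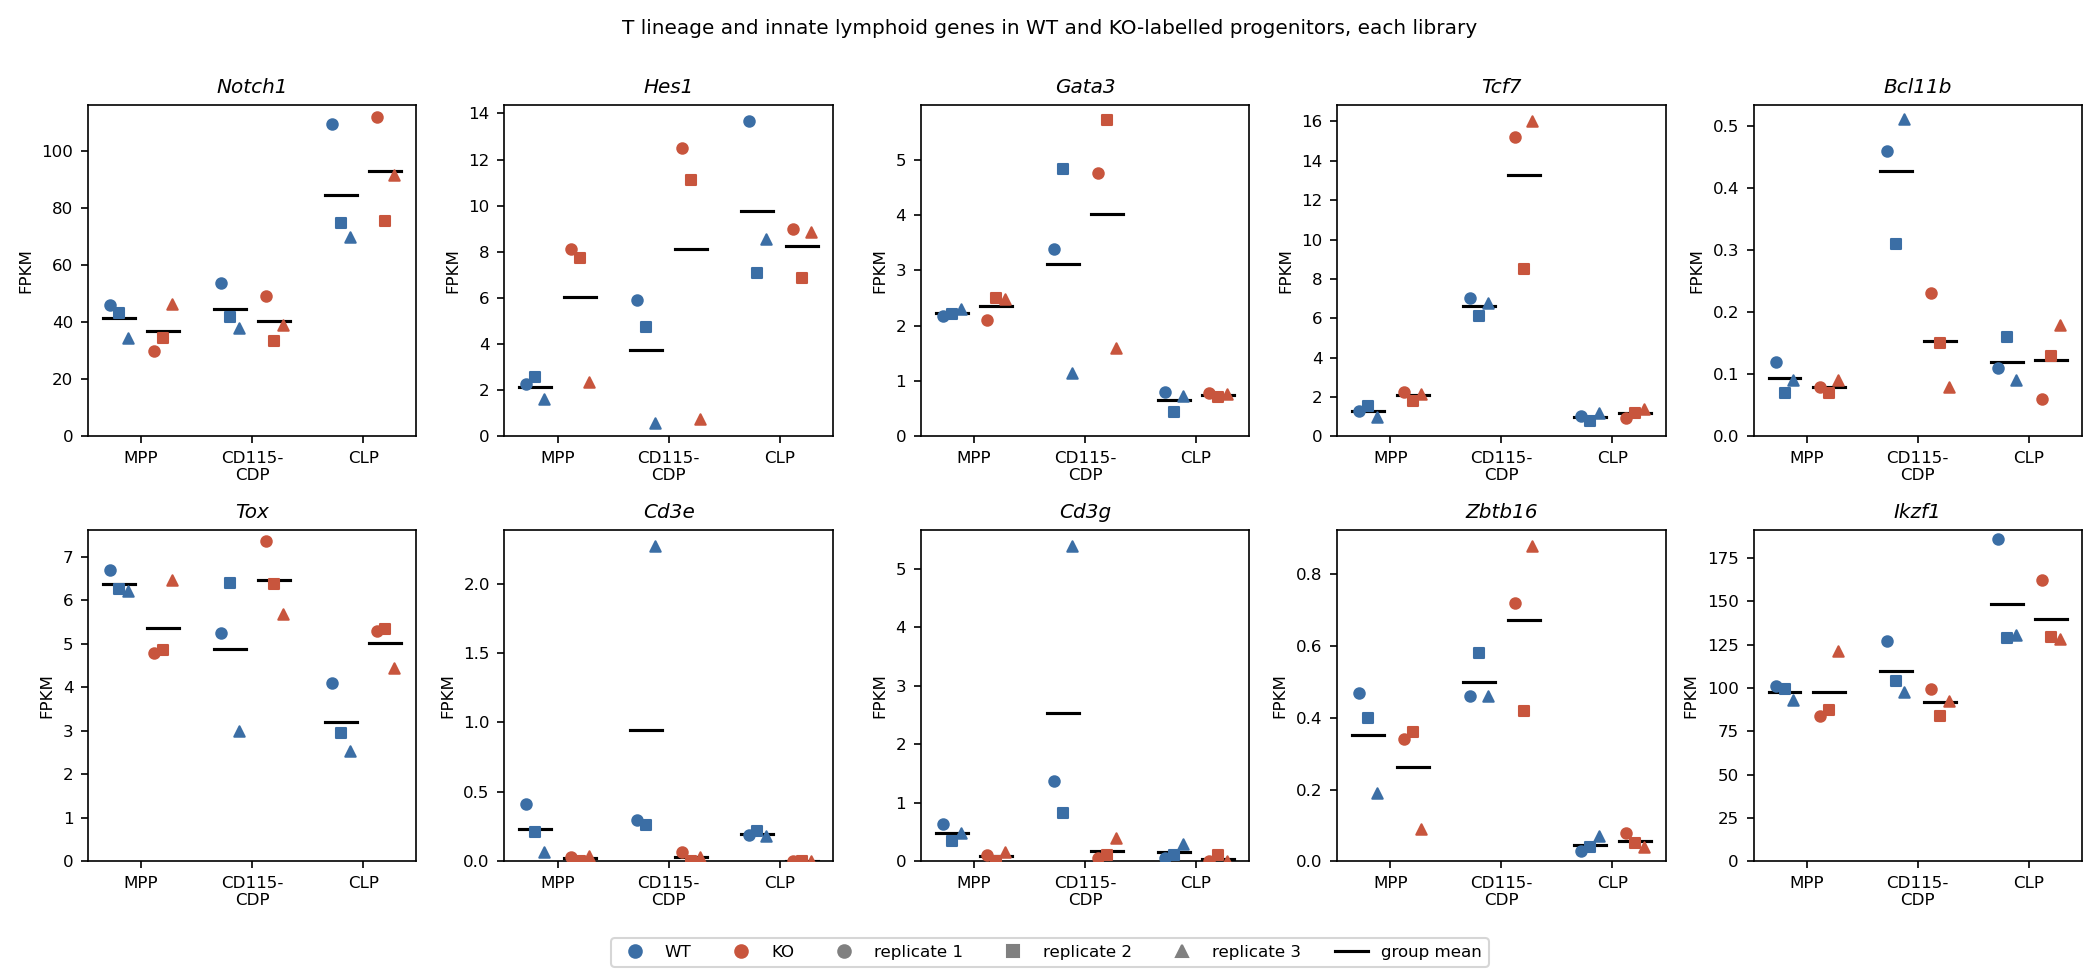
FPKM of the 10 genes in each of the 18 libraries, by population on the horizontal axis, with a separate linear vertical axis for each gene. Blue points are WT and red points KO-labelled libraries, the shape gives the replicate number and the bar the group mean (n = 3). *Cd3e* and *Cd3g* of KO-labelled libraries lie at or near 0, *Tcf7* is highest in CD115- CDPs and *Notch1* and *Ikzf1* are highest in CLPs.

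The 10 genes covered a wide range of levels in WT cells. *Ikzf1*, encoding Ikaros, had group means of 97.9 to 148 FPKM over the 3 populations, and *Notch1*, encoding the receptor, 41.3 to 84.7 FPKM. *Hes1*, *Gata3*, *Tcf7* and *Tox* had group means between 0.663 and 9.79 FPKM. *Bcl11b* and *Zbtb16* did not exceed 0.51 and 0.58 FPKM in any WT library. *Cd3e* and *Cd3g* were below 1.5 FPKM in WT except in replicate 3 of the CD115- CDPs.

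Differences between the WT populations were tested over all 18 libraries with limma, a linear model fitted to log2(FPKM + 1) of 12421 genes, and genes were called where the p adjusted after Benjamini and Hochberg was 0.05 or lower. The mean filter of 0.5 FPKM left 7 of the 10 genes, all but *Bcl11b*, *Cd3e* and *Zbtb16*. *Cd3g* was among the 7 only through the WT CD115- CDPs, the single group of the 6 whose mean was above 0.5 FPKM, so that its entry depended on the difference tested and its 2 calls, counted below, support nothing. In WT CLPs against WT MPPs 4 of the 7 were called, where 25.2% of all genes were, 2 of them higher (10.5% of all genes) and 2 lower (14.7%). In WT CD115- CDPs against WT MPPs 2 of 7 were called (20.8% of all genes), both higher (5.36%). In WT CLPs against WT CD115- CDPs 4 of 7 were called (10.7% of all genes), 1 higher (7.53%) and 3 lower (3.12%). Each population came in its own table, so population and table cannot be told apart in these contrasts.

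*Notch1* (Entrez 18128, chr2:26457902-26503822 of GRCm38) was 109.37, 74.80 and 70.00 FPKM in WT CLPs, 46.03, 43.34 and 34.56 FPKM in WT MPPs and 53.79, 41.93 and 37.94 FPKM in WT CD115- CDPs. All CLP libraries were above all others. The log2 difference was 1.001 to MPPs (standard error, SE, 0.217, limma adjusted p = 0.0032) and 0.90 to CD115- CDPs (SE 0.217, limma adjusted p = 0.0175), while CD115- CDPs and MPPs differed by 0.10 (95% confidence interval -0.36 to 0.56, limma adjusted p = 0.763). *Ikzf1* (Entrez 22778, chr11:11684962-11772930) had the same order of levels, with 185.91, 128.64 and 130.53 FPKM in WT CLPs, 127.30, 104.16 and 97.73 FPKM in WT CD115- CDPs and 101.15, 99.36 and 93.08 FPKM in WT MPPs. Its CLP level was above that of MPPs by 0.57 (SE 0.165, limma adjusted p = 0.0183), and the neighbouring steps, of 0.42 from CD115- CDPs to CLPs and 0.16 from MPPs to CD115- CDPs, did not pass (limma adjusted p = 0.113 and 0.521).

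*Hes1* (Entrez 15205, chr16:30065357-30067796), a repressor induced by Notch signals, was 13.69, 7.10 and 8.57 FPKM in WT CLPs and 2.29, 2.56 and 1.62 FPKM in WT MPPs, without overlap. The log2 difference of 1.74 did not pass the threshold (SE 0.675, limma adjusted p = 0.0732). That SE came from a spread shared by all 6 groups, not by these 2 alone. The CD115- CDPs entered it with 0.58 to 5.93 FPKM in WT and 0.77 to 12.50 FPKM under the KO label. In WT CD115- CDPs *Hes1* was 5.93, 4.73 and 0.58 FPKM, a spread that covered the MPP level on both sides.

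*Tcf7* (Entrez 21414, chr11:52246527-52283383), encoding TCF-1, was the member with the clearest peak in CD115- CDPs. It was 7.05, 6.12 and 6.76 FPKM there, 1.27, 1.53 and 1.01 FPKM in WT MPPs and 1.02, 0.80 and 1.2 FPKM in WT CLPs. CD115- CDPs were above MPPs by 1.76 (SE 0.188, limma adjusted p = 1.04e-05) and CLPs below CD115- CDPs, with a log2 difference of -1.93 (SE 0.188, limma adjusted p = 1.56e-05). MPPs and CLPs differed by -0.18 (95% confidence interval -0.58 to 0.22, limma adjusted p = 0.545).

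*Gata3* (Entrez 14462, chr2:9857078-9887953), which encodes a factor of T cells and of innate lymphoid cells, was lowest in CLPs. It was 0.81, 0.45 and 0.73 FPKM in WT CLPs, 2.17, 2.21 and 2.30 FPKM in WT MPPs and 3.39, 4.83 and 1.14 FPKM in WT CD115- CDPs. CLPs were below both other populations in every library. The log2 difference of CLPs was -0.96 to MPPs (SE 0.329, limma adjusted p = 0.0434) and -1.20 to CD115- CDPs (SE 0.329, limma adjusted p = 0.0326). The first call was lost when any 1 of the 6 libraries was left out, with limma adjusted p from 0.0703 to 0.135, and the second was lost without any of its 6 libraries other than CD115- CDP replicate 3.

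*Tox* (Entrez 252838, chr4:6686353-6991557), encoding an HMG box factor needed for innate lymphoid and CD4 T cell development, was 6.69, 6.25 and 6.20 FPKM in WT MPPs, 5.24, 6.40 and 3.0 FPKM in WT CD115- CDPs and 4.09, 2.95 and 2.54 FPKM in WT CLPs. CLPs were below MPPs, with a log2 difference of -0.83 (SE 0.201, limma adjusted p = 0.00663). The CD115- CDPs lay between the others, and neither step passed (limma adjusted p = 0.198 and 0.149).

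*Cd3g* (Entrez 12502, chr9:44969572-44980431) was 1.38, 0.83 and 5.39 FPKM in WT CD115- CDPs, 0.64, 0.35 and 0.48 FPKM in WT MPPs and 0.05, 0.10 and 0.30 FPKM in WT CLPs. It was called higher in CD115- CDPs than in MPPs (log2 difference 1.03, SE 0.310, limma adjusted p = 0.0285) and lower in CLPs than in CD115- CDPs (-1.40, SE 0.310, limma adjusted p = 0.0106). CD115- CDP replicate 3, one of the libraries with high neutrophil markers, carried the highest value, and through it the gene entered the test, since without that library it no longer passed the mean filter of that fit. *Cd3e* (Entrez 12501, chr9:44998735-45009663), not tested there, was also highest in that library, at 2.27 FPKM, against 0.30 and 0.26 FPKM in the other WT CD115- CDPs, 0.07 to 0.41 FPKM in WT MPPs and 0.18 to 0.22 FPKM in WT CLPs.

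*Bcl11b* (Entrez 58208, chr12:107910403-108004145), the T lineage commitment factor, was 0.46, 0.31 and 0.51 FPKM in WT CD115- CDPs, all above the 0.07 to 0.12 FPKM of WT MPPs and the 0.09 to 0.16 FPKM of WT CLPs. *Zbtb16* (Entrez 235320, chr9:48651797-48836225), encoding the innate lymphocyte factor PLZF, was 0.46, 0.58 and 0.46 FPKM in WT CD115- CDPs, 0.47, 0.40 and 0.19 FPKM in WT MPPs and 0.03, 0.04 and 0.07 FPKM in WT CLPs. Every CLP library was below those of the other populations. These levels were under the filter and were not tested.

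**Figure D2:**
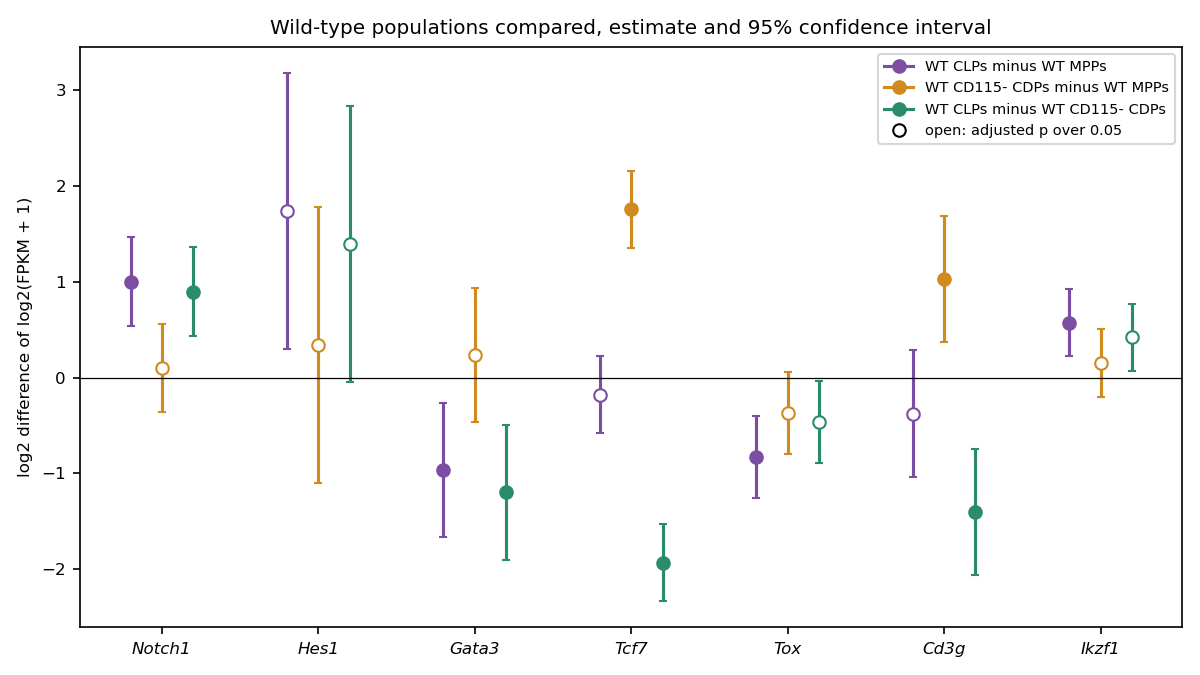
Log2 differences of log2(FPKM + 1) between WT populations for the 7 genes tested, with 95% confidence intervals from the limma fit over 18 libraries. Filled points have an adjusted p of at most 0.05. *Notch1* is higher in CLPs in both contrasts, and *Tcf7* is 1.76 higher in CD115- CDPs than in MPPs and differs by -1.93 in CLPs against CD115- CDPs.

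The second question was whether deletion of *Trim33* altered these genes in each population, which was tested within that population. With 6, 8 and 6 of the 10 genes past the filter in MPPs, CD115- CDPs and CLPs, limma called 0 of them in each population, where 3.84%, 0.106% and 14.3% of all tested genes were called. At an unadjusted p below 0.05 there were 2, 2 and 1. In CD115- CDPs and CLPs the deviations of same-numbered WT and KO-labelled libraries correlated by over 0.1 in each pair, by as little as 0.13 in CLPs. With the replicate number as a block 2 of the 8 genes were called in CD115- CDPs, *Tcf7* higher and *Cd3g* lower, and 1 of the 6 in CLPs, *Tox* higher. *Cd3g* had passed the filter in CD115- CDPs only through the WT libraries (mean 2.53 FPKM, against 0.18 FPKM under the KO label), so that it could enter only with a difference, and its call is given as a value and not as support. With the block 9.34% of all tested genes were called in CD115- CDPs, 3.78% higher and 5.56% lower, and 20.9% in CLPs, 8.44% higher. The median log2 fold change (KO minus WT) of the tested members was 0.02, 0.22 and 0.10 in the same order, beside -0.11, -0.07 and 0.01 over all tested genes. In bulk RNA, a change in the number of expressing cells and a change in RNA per cell cannot be told apart.

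**Figure D3:**
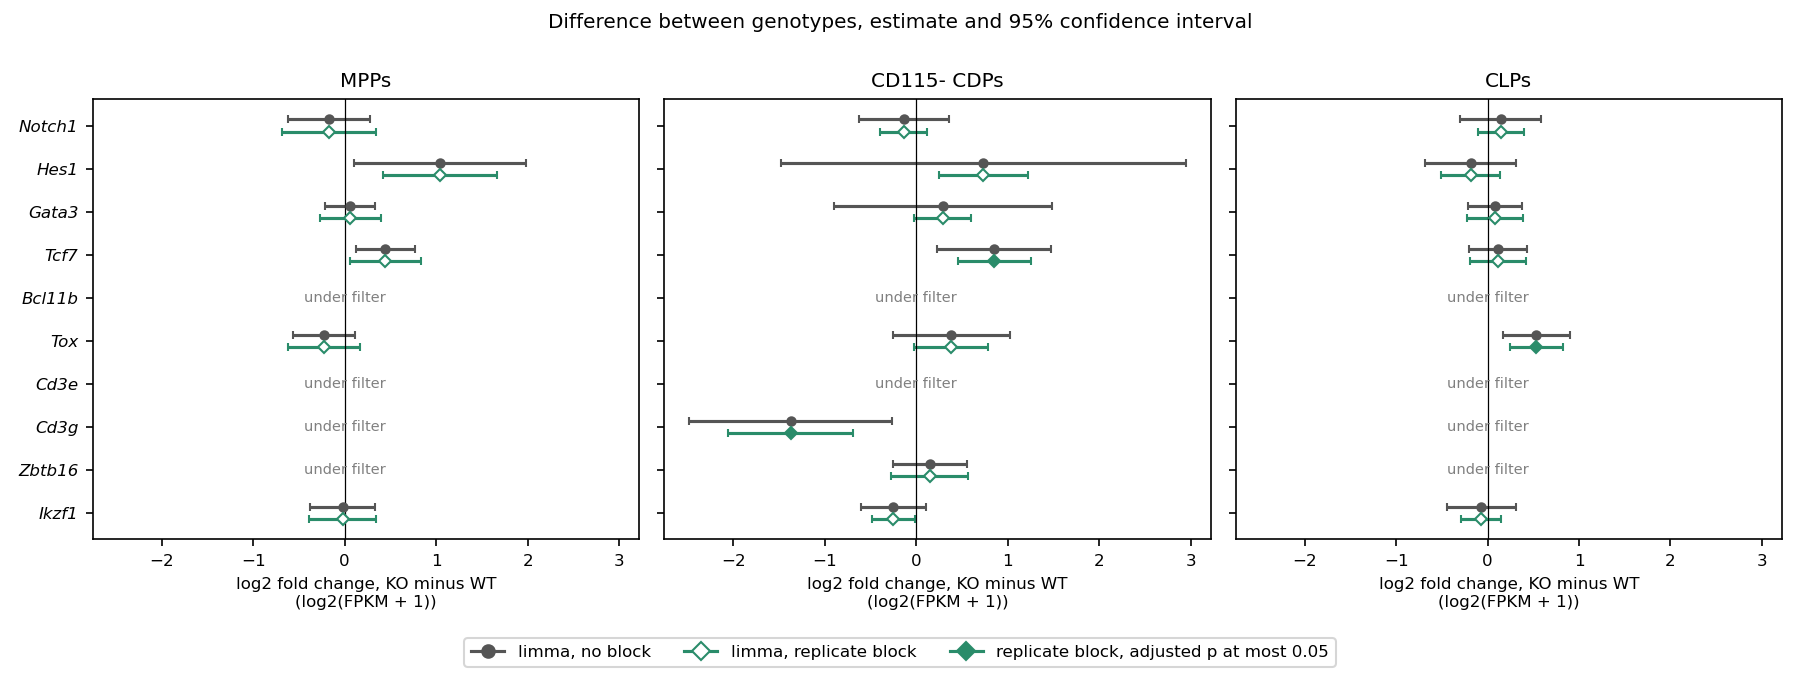
Log2 fold change of KO-labelled against WT libraries on log2(FPKM + 1), with 95% confidence intervals, without (circles) and with (diamonds) the replicate number as a block. Filled diamonds have an adjusted p of at most 0.05 in the blocked fit. These are *Tcf7* (0.85) and *Cd3g* (-1.37) in CD115- CDPs and *Tox* (0.54) in CLPs. Genes under the mean filter of 0.5 FPKM have no estimate.

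The Notch receptor and Ikaros, the most abundant members, did not pass the test in any population. *Notch1* was 29.75, 34.40 and 46.39 FPKM in KO-labelled MPPs, 49.31, 33.34 and 38.98 FPKM in CD115- CDPs and 111.81, 75.38 and 91.72 FPKM in CLPs. These values overlapped those of WT in each population, with log2 fold changes of -0.17 (95% confidence interval -0.62 to 0.27), -0.14 (-0.63 to 0.36) and 0.14 (-0.30 to 0.59). *Ikzf1* was 83.82, 87.50 and 121.46 FPKM in KO-labelled MPPs, 99.38, 83.66 and 92.47 FPKM in CD115- CDPs and 162.13, 129.44 and 128.16 FPKM in CLPs. Its log2 fold changes were -0.02 (95% confidence interval -0.38 to 0.33), -0.25 (-0.60 to 0.11) and -0.07 (-0.45 to 0.31). In CD115- CDPs it was lower in 3 of 3 same-numbered pairs (limma adjusted p = 0.611, 0.141 with the block).

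*Hes1* had the largest SE of the 6 members tested in all 3 populations, in each of them. KO-labelled MPPs had 8.12, 7.72 and 2.35 FPKM, of which replicates 1 and 2 were above all WT values and replicate 3 was inside the WT range. The log2 fold change was 1.04 (SE 0.393, limma adjusted p = 0.177). KO-labelled CD115- CDPs had 12.50, 11.13 and 0.77 FPKM, where replicate 3 was low in both genotypes (0.58 FPKM in WT). The log2 fold change there was 0.74, with a SE of 0.922 without and 0.202 with the block (limma adjusted p = 0.847 and 0.0697), and the KO-labelled library was higher in 3 of 3 pairs. In CLPs the values were 9.01, 6.87 and 8.85 FPKM and the log2 fold change -0.18 (SE 0.216, limma adjusted p = 0.620). The library labelled KO 3, at 4.80 FPKM of *Trim33*, was the only KO-labelled MPP library below the WT range of that gene (8.78 to 10.42 FPKM). KO 1 and KO 2, at 9.71 and 11.66 FPKM, were not below it. Without KO 3, the MPP value of *Hes1* was 1.51 (limma adjusted p = 0.00119), in a fit that called 6717 genes in place of 475. In a fit added after the data were seen, without replicate 3 of both genotypes, the CD115- CDP value was 1.02 (limma adjusted p = 0.0281). The share of all genes called in that fit is not given here.

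*Tcf7* was higher without overlap in the KO-labelled libraries of MPPs and CD115- CDPs. MPPs had 2.28, 1.80 and 2.16 FPKM, all above the WT maximum of 1.53 FPKM, a log2 fold change of 0.44 (SE 0.136, limma adjusted p = 0.123). CD115- CDPs had 15.23, 8.49 and 16.05 FPKM, all above the WT maximum of 7.05 FPKM. The log2 fold change was 0.85 (SE 0.259, limma adjusted p = 0.378), and with the block the SE was 0.164 and the limma adjusted p 0.0340. That call was lost when the block was combined with no filter on expression (limma adjusted p = 0.129), and the cause was not tested. In CLPs *Tcf7* was 0.95, 1.17 and 1.38 FPKM, overlapping WT, with a log2 fold change of 0.11 (95% confidence interval -0.20 to 0.43, limma adjusted p = 0.642).

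*Tox* was 5.30, 5.33 and 4.43 FPKM in KO-labelled CLPs, all above the WT maximum of 4.09 FPKM. The log2 fold change was 0.54 (SE 0.159, limma adjusted p = 0.0589), and *Tox* passed the threshold with the block (SE 0.126, limma adjusted p = 0.0211). With the block and no filter the limma adjusted p was 0.0980. In CD115- CDPs it was 7.36, 6.36 and 5.69 FPKM (log2 fold change 0.39, SE 0.265, limma adjusted p = 0.665, or 0.180 when blocked), and in MPPs 4.78, 4.85 and 6.45 FPKM (log2 fold change -0.22, SE 0.143, limma adjusted p = 0.346). In MPPs, KO-labelled replicates 1 and 2 were below the WT range and replicate 3 was inside it.

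*Gata3* did not pass in any population. It was 2.11, 2.51 and 2.48 FPKM in KO-labelled MPPs, 4.77, 5.72 and 1.60 FPKM in CD115- CDPs and 0.79, 0.71 and 0.76 FPKM in CLPs. The log2 fold changes were 0.06 (95% confidence interval -0.21 to 0.33), 0.29 (-0.90 to 1.48) and 0.08 (-0.22 to 0.38). In CD115- CDPs replicate 3 was the lowest of both genotypes, and KO-labelled libraries were higher in 3 of 3 pairs (limma adjusted p = 0.894, 0.182 with the block).

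*Cd3g* was lower in KO-labelled CD115- CDPs, at 0.05, 0.10 and 0.39 FPKM, than in any WT library, the lowest of which had 0.83 FPKM. The log2 fold change was -1.37 (SE 0.462, limma adjusted p = 0.408), and with the block the fold change was the same, with a SE of 0.284 and a limma adjusted p of 0.0388. WT replicate 3 carried the largest value. Without that library the log2 fold change was -0.83 (limma adjusted p = 0.348), and without replicate 3 of both genotypes -0.96 (limma adjusted p = 0.0372). The fit without both was added after the data were seen. The call with the block was lost with no filter (limma adjusted p = 0.141). In MPPs, where *Cd3g* was under the filter, KO-labelled libraries had 0.10, 0 and 0.15 FPKM, all below the WT minimum of 0.35 FPKM, and in CLPs they had 0, 0.10 and 0 FPKM, overlapping WT.

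*Cd3e* was under the filter in all populations and lower without overlap in each. WT and KO-labelled libraries had 0.41, 0.21 and 0.07 against 0.03, 0 and 0.04 FPKM in MPPs. They had 0.30, 0.26 and 2.27 against 0.07, 0 and 0.03 FPKM in CD115- CDPs. In CLPs the WT values were 0.19, 0.22 and 0.18 FPKM, and all 3 KO-labelled libraries were listed at 0. With 3 against 3 libraries the exact two-sided permutation test cannot go below p = 0.10, which is its value in each population. Without the filter limma gave *Cd3e* in CLPs an adjusted p of 0.00183 (with the block 0.0155), against 0.213 in MPPs and 0.595 in CD115- CDPs. The CLP value rests on a SE of 0.0234, as the 3 KO-labelled libraries at 0 have no spread.

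These low values rest on few reads. On a transcript of the length of *Cd3e*, 1 read was worth an estimated 0.0333 to 0.0368 FPKM, and on *Cd3g* 0.0483 to 0.0534 FPKM. WT MPPs thus held about 12.1, 6.1 and 2.1 reads of *Cd3e* and 13, 7 and 9.9 reads of *Cd3g*, while KO-labelled MPPs held about 0.9, 0 and 1.2, and 2.0, 0 and 3.0. WT CD115- CDPs held about 8.2, 7.3 and 65.3 reads of *Cd3e* and 26, 16 and 106.9 of *Cd3g*, and the KO-labelled ones 2.0, 0 and 0.9, and 1.0, 2.1 and 7.9. In WT CLPs there were about 5.2, 6.1 and 5.2 reads of *Cd3e*, and a library at 0 allows up to 3 reads, or 0.11 FPKM, for counting error only. *Cd3g* in CLPs was at 0.9, 1.9 and 5.9 reads in WT and 0, 1.9 and 0 under the KO label. Without the filter limma gave it an adjusted p of 0.354, and what difference this depth could detect was not tested.

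*Bcl11b* was 0.23, 0.15 and 0.08 FPKM in KO-labelled CD115- CDPs, below the WT minimum of 0.31 FPKM in each library. In MPPs and CLPs it did not exceed 0.18 FPKM in any library and the genotypes overlapped. *Zbtb16* passed the filter only in CD115- CDPs, where KO-labelled libraries had 0.72, 0.42 and 0.88 FPKM and the log2 fold change was 0.15 (95% confidence interval -0.26 to 0.55, limma adjusted p = 0.824). In MPPs it was 0.34, 0.36 and 0.09 FPKM and in CLPs 0.08, 0.05 and 0.04 FPKM, overlapping WT.

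Counted over all 10 genes, KO-labelled values lay wholly below WT for 2 in MPPs (*Cd3e*, *Cd3g*), 3 in CD115- CDPs (*Cd3e*, *Cd3g*, *Bcl11b*) and 1 in CLPs (*Cd3e*). Over all genes above 0 in at least 1 library, this held for 19.6%, 9.04% and 15.2%. Wholly above WT was 1 member in each, *Tcf7* in MPPs and CD115- CDPs and *Tox* in CLPs, where 5.81%, 5.76% and 11.8% of all genes were. Among genes under the mean filter, 11.9%, 6.06% and 8.28% lay wholly below.

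Markers of some other cell types differed with the genotype label in some populations, while other sums overlapped. The summed level of 7 mature T cell markers was 71.75 to 82.68 FPKM in WT and 67.17 to 86.84 FPKM in KO-labelled MPPs, 36.25 to 76.93 and 42.45 to 99.41 FPKM in CD115- CDPs, and 95.01 to 115.35 and 128.86 to 144.71 FPKM in CLPs. Most of the CLP sum was *Lck* (means 57.6 in WT and 67.9 FPKM under the KO label) and *Lat* (26.5 and 43.6). *Cd247* (10.7 and 17.9) and *Cd5* (3.57 and 3.99) were also higher there. *Cd4* (6.61 and 1.25), *Cd8a* (1.98 and 0.32) and *Cd3d* (0.43 and 0.36 FPKM) were lower. All 7 were above 0 in every group, and 2 were called lower and 2 higher in CLPs, 1 lower in MPPs and 0 in CD115- CDPs, where 1 was called higher with the block. These 7 are also on the T cell receptor list described further on. *Cd3d*, the remaining CD3 gene of the same cluster, was 0.53, 0.57 and 0.88 against 0.07, 0.12 and 0.22 FPKM in MPPs, 0.83, 0.39 and 3.47 against 0.31, 0.17 and 0.24 FPKM in CD115- CDPs, and 0.44, 0.33 and 0.52 against 0.51, 0.25 and 0.31 FPKM in CLPs. The summed level of 7 plasmacytoid DC markers was 207.4 to 219.79 FPKM in WT and 151.99 to 178.92 FPKM in KO-labelled MPPs, 375.62 to 1051.16 and 153.37 to 216.84 FPKM in CD115- CDPs, and 972.15 to 1045.68 and 119.17 to 133.72 FPKM in CLPs, where 7 of 7 were called lower. In CD115- CDPs 0 of these 7 were called without and 5 lower with the block, and in MPPs 2 were called lower. *Cd209a* was at 0 in all KO-labelled CD115- CDPs. The summed level of 6 natural killer cell markers was 7.33 to 8.11 FPKM in WT and 6.92 to 13.39 FPKM in KO-labelled MPPs, 19.38 to 26.19 and 7.13 to 13.2 FPKM in CD115- CDPs, and 22.7 to 28.74 and 4.4 to 10.44 FPKM in CLPs, with 0, 1 and 2 called lower. Most of the WT sum in CLPs was *Klrd1*, with means of 21.96 FPKM in WT and 5.28 FPKM under the KO label. *Il2rb* had 1.71 and 0.73 FPKM there. *Ncr1* (0.19 and 0.17), *Gzma* (0.18 and 0.14), *Klrb1c* (0.77 and 0.86) and *Prf1* (0.75 and 0.79 FPKM) were nearly equal. That of 10 B lineage markers was 67.61 to 73.46 and 24.3 to 46.98 FPKM in MPPs, 63.53 to 213.44 and 48.06 to 279.86 FPKM in CD115- CDPs, and 447.73 to 1013.53 and 380.33 to 714.11 FPKM in CLPs. Of these, 2 were called lower in MPPs and 0 in CD115- CDPs, and in CLPs 2 were called higher and 1 lower, or 4 lower with the block.

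The 6 erythroid markers summed to 267.35 to 296.45 FPKM in WT and 1.36 to 10.08 FPKM in KO-labelled MPPs, 4.86 to 28.54 and 0.44 to 4.29 FPKM in CD115- CDPs, and 27.67 to 45.78 and 2.05 to 6.37 FPKM in CLPs. They were called lower for 6 genes in MPPs and 3 in CLPs, and for 0 in CD115- CDPs, and with the block for 4 in CLPs and 1 in CD115- CDPs. The 7 neutrophil lineage markers summed to 2654.13 to 2733.21 FPKM in WT and 1278.6 to 2021.4 FPKM in KO-labelled MPPs, where 3 were called lower. In CLPs they summed to 338.48 to 711.81 and 208.73 to 319.7 FPKM, with 0 called without and 6 called lower with the block, and in CD115- CDPs 0 were called in either fit. The 7 genes of the sort gates summed to 865.43 to 938.86 FPKM in WT and 649.74 to 859.01 FPKM in KO-labelled MPPs, 496.57 to 591.92 and 424.69 to 642.43 FPKM in CD115- CDPs, and 562.26 to 655.73 and 610.32 to 654.77 FPKM in CLPs. Of these 3 were called lower in MPPs and 1 in CD115- CDPs (3 with the block), and 2 lower and 2 higher in CLPs. The part of these cell types in the values of *Cd3e*, *Cd3g* and the other members was not tested.

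A test of whether the genotype difference itself varied between populations (limma F test of the interaction, all 18 libraries) passed for 0 of the 7 members tested, where 2.45% of 12421 genes passed. At an unadjusted p below 0.05 there were 3, *Tcf7*, *Tox* and *Cd3g*, with limma adjusted p of 0.296, 0.291 and 0.273. When same-numbered libraries of a population shared an intercept, 8.67% of genes passed, and the lowest adjusted p among members were 0.0636 for *Cd3g*, 0.0726 for *Hes1*, 0.0846 for *Tox* and 0.107 for *Tcf7*. That *Tox* passed with the block in CLPs and *Tcf7* in CD115- CDPs therefore does not show a difference between populations.

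Other genes of the same pathways were counted from lists that exclude the members. Without the block, 0.315% of all tested genes were higher and 3.52% lower in KO-labelled MPPs, 0.0409% higher and 0.0654% lower in CD115- CDPs, and 5.41% higher and 8.92% lower in CLPs. Of 29 Notch pathway genes, which include receptors, ligands, modifiers and the cleavage enzymes, 22, 24 and 24 were tested in MPPs, CD115- CDPs and CLPs. With limma 0 passed in MPPs and CD115- CDPs (1 and 2 at an unadjusted p below 0.05, and with the block 0 in MPPs and 1 higher and 1 lower in CD115- CDPs), and in CLPs 3 rose and 2 fell. With the block 4 rose and 2 fell in CLPs, the gene gained being *Psen2*, a subunit of the cleavage enzyme (log2 fold change 0.36, limma adjusted p = 0.0687, 0.0475 with the block). *Dll4*, a ligand, fell from 2.26 to 0.32 FPKM (log2 fold change -1.31, limma adjusted p = 2.73e-04) and *Notch3*, a receptor, from 0.92 to 0.20 FPKM (-0.65, limma adjusted p = 0.0361). Both were under 0.5 FPKM in KO-labelled CLPs and passed the filter through WT. The ligand *Jag2* rose from 7.53 to 13.02 FPKM (0.70, limma adjusted p = 0.0229) and *Mfng*, a glycosyltransferase that modifies Notch receptors, from 53.3 to 80.5 FPKM (0.59, limma adjusted p = 0.0102). The median log2 fold change of the list in CLPs was 0.09, beside 0.01 for all tested genes.

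Of 18 genes of the T cell receptor complex and proximal T cell signalling, 13 were tested in CLPs, of which 3 rose and 5 fell. With the block 4 rose, the gene gained being *Cd28*, a costimulatory receptor of T cells (log2 fold change 0.58, limma adjusted p = 0.178, 0.0109 with the block), and 5 fell. *Cd7* fell from 141 to 3.50 FPKM (log2 fold change -4.98, limma adjusted p = 1.98e-06), *Cd4* from 6.61 to 1.25 FPKM (-1.73), *Thy1* from 18.04 to 4.96 FPKM (-1.67) and *Cd8a* from 1.98 to 0.32 FPKM (-1.18), the last having passed the filter through WT. *Cd4* and *Cd8a* encode T cell coreceptors, and both are also expressed by DCs, *Cd4* by plasmacytoid DCs and *Cd8a* by another DC subset. In CD115- CDPs 1 of 14 passed, *Cd7*, which fell from 49.0 to 4.98 FPKM (log2 fold change -3.06, limma adjusted p = 0.0117), and with the block 1 rose and 2 fell. In MPPs 1 of 13 passed, *Cd4*, which fell from 3.48 to 1.28 FPKM (-0.99, limma adjusted p = 0.0260).

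All 5 genes of antigen receptor recombination and the interleukin 7 receptor were tested in each population. In CLPs 4 rose and 0 fell. *Rag1*, a subunit of the recombinase, rose from 16.2 to 53.9 FPKM (log2 fold change 1.67, limma adjusted p = 2.54e-05), *Dntt*, which adds bases at the joins, from 1045 to 2086 FPKM (0.99), *Il2rg*, the common cytokine receptor chain, from 38.8 to 75.6 FPKM (0.94) and *Rag2* from 5.24 to 10.3 FPKM (0.81). *Il7r* was 43.2 and 39.8 FPKM and did not pass. In MPPs and CD115- CDPs limma called 0 of the 5 (1 and 0 at an unadjusted p below 0.05), and with the block 0 in MPPs and 2 higher and 1 lower in CD115- CDPs.

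Of 13 further lymphoid transcription factor genes, all tested in CLPs, *Lef1*, which is related to *Tcf7*, fell from 11.9 to 5.68 FPKM (log2 fold change -0.99, limma adjusted p = 0.0289) and *Lmo2* rose from 92.0 to 120.6 FPKM (0.38, limma adjusted p = 0.0355), and with the block 2 rose and 2 fell. In MPPs *Gfi1* fell by 0.73 and *Meis1* by 0.61 on the log2 scale (limma adjusted p = 0.0260 and 0.0306), 2 of 12 tested, and in CD115- CDPs limma called 0 of 13 (1 at an unadjusted p below 0.05), with 1 lower under the block. Of 20 innate lymphoid and natural killer genes, 10 were tested in CLPs, of which 2 rose and 4 fell. *Itgb7*, an integrin chain, fell from 91.1 to 13.1 FPKM (-2.69), *Klrd1*, encoding CD94, from 21.96 to 5.28 FPKM (-1.93) and *Il17rb*, a receptor for interleukin 25, from 16.3 to 5.82 FPKM (-1.34), while *Il18r1*, a chain of the interleukin 18 receptor, rose from 7.04 to 22.4 FPKM (1.56). In CD115- CDPs the level of *Klrd1* fell from 10.96 to 2.36 FPKM (log2 fold change -1.84, limma adjusted p = 0.0401), 1 of 13 tested, or 2 with the block. *Eomes*, a natural killer cell factor, rose in MPPs from 0.273 to 0.807 FPKM (0.51, limma adjusted p = 0.0455), 1 of 16 tested, having passed the filter through the KO-labelled libraries. Of the 4 other Ikaros family genes, 2, 3 and 2 were tested, and limma called 0 with or without the block (1, 0 and 0 at an unadjusted p below 0.05).

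**Figure D4:**
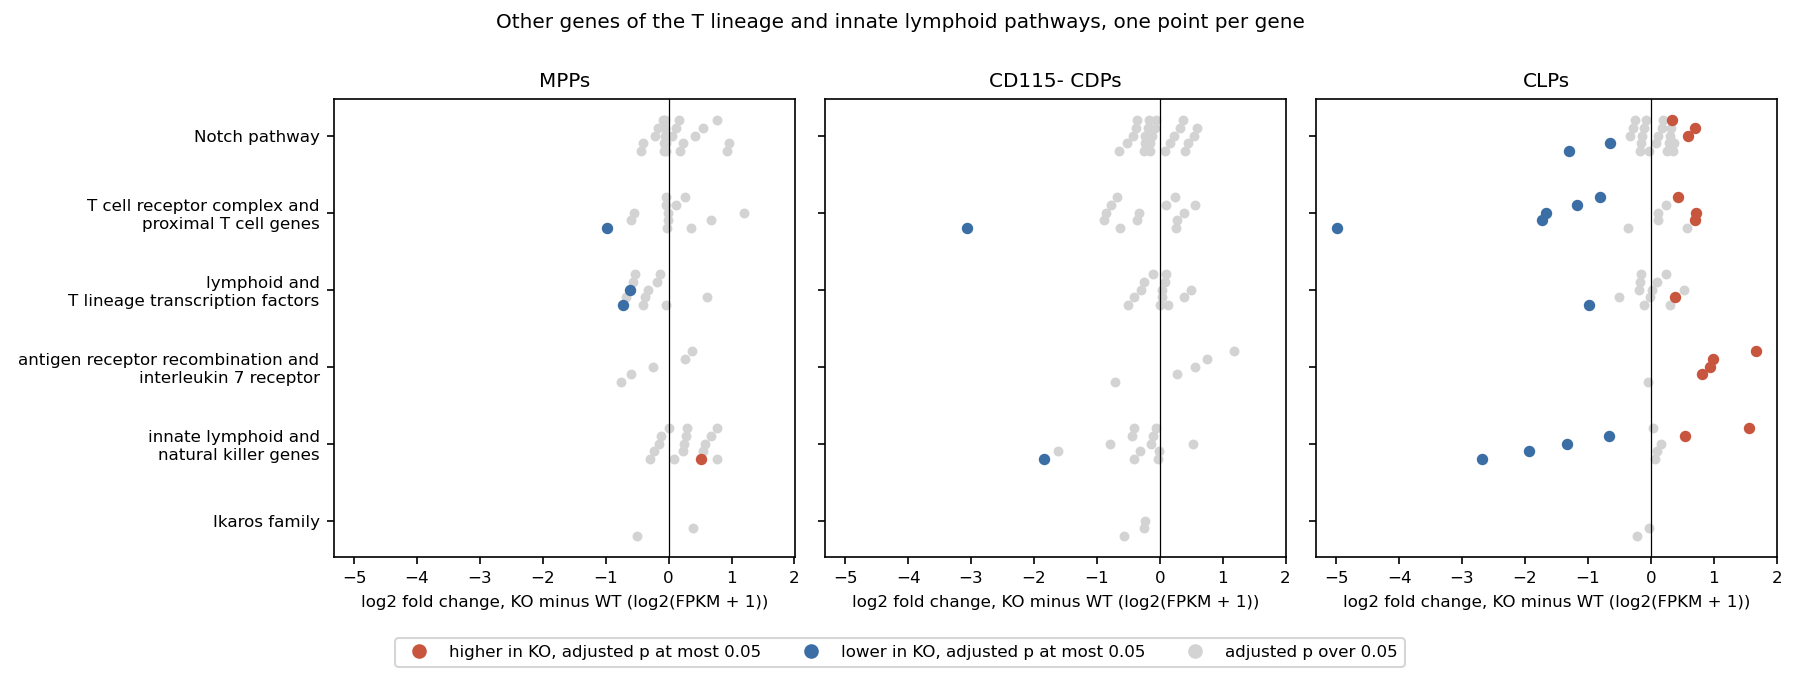
Log2 fold change of KO-labelled against WT libraries for the tested genes of 6 lists that exclude the 10 members, 1 point per gene, spread vertically for legibility. Coloured points have a limma adjusted p of at most 0.05 without the block. In CLPs *Cd7* lies farthest to the left, at -4.98, and *Rag1* farthest to the right, at 1.67.

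For the 6 members tested in all 3 populations, the gene nearest in pattern over the 18 libraries was found by the root mean square difference of centred log2(FPKM + 1) among 12420 genes. The nearest were *Zfp369* for *Notch1* (0.185), *Zfp36l1* for *Hes1* (0.420), 9430016H08Rik for *Gata3* (0.306), *Nfil3* for *Tcf7* (0.622), *Fastkd2* for *Tox* (0.188) and *Tacc2* for *Ikzf1* (0.0983), where the members' own SD over the libraries were 0.575, 0.968, 0.661, 1.07, 0.348 and 0.313. All 18 points share the differences between populations and between libraries, and the values are a description.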

How the data were processed

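Total RNA of sorted cells was enriched for poly-A RNA and sequenced as single-end reads on a BGISEQ-500. No strand setting is stated in the sources used here. The authors' processing notes name Bowtie2 2.2.5, HISAT2 2.0.4, RSEM 1.2.12 and the mm10 build. Deposited were FPKM for each gene in each library, computed by the authors with RSEM, with 2 decimals, in 1 table per population of 18378 to 19710 genes. Read counts were not used here, so no count test was run. Depth was estimated from the steps between low FPKM of 371 to 451 genes per library with 1 transcript, and is approximate.

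Genes whose mean reached 0.5 FPKM were tested on log2(FPKM + 1), which understates changes of low genes, with limma 3.58.1 (eBayes with trend) in R 4.3.3 and Benjamini-Hochberg adjustment over all tested genes. KO-labelled and WT libraries were compared within each population. One fit with 6 group means gave the population contrasts and the interaction. Replicate numbers in the labels were checked by the correlation of same-numbered libraries' deviations (CD115- CDPs 0.44 to 0.79, CLPs 0.13 to 0.40, where differently numbered ones had -0.78 to 0.66 and -0.40 to 0.23). Each same-numbered pair was over 0.1 in these populations, a limit set by choice. There the blocked value or count is given where it changes a call. In MPPs pair 1 (0.04) was not over it, while pairs 2 and 3 (0.48 and 0.47) were. Some differently numbered libraries correlated more than some same-numbered ones. The labels call the libraries biological repeats. Alternatives were a pseudocount of 0.1, no filter, a filter at 5 FPKM, TPM and median ratio scaling, no trend, a minimum log2 fold change of 1, the block, and each library left out. A fit without both replicate 3 libraries of the CD115- CDPs, and the block without a filter, were added after seeing the data. The scripts were tested on simulated data. Sequences came from the RefSeq promoter table of GRCm38.p6, which matched 7 of the 10 genes. Plots and sequence searches used Python 3.11.15, pandas 2.3.3, numpy 2.4.6 and matplotlib 3.10.9.

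The members and lists were chosen with earlier results of these data known. All members, *Trim33*, up to 4 called genes per list and population with the largest changes, and the nearest gene in pattern are named. *Cd3d*, *Il7r*, *Csf1r*, *Cd209a*, *Psen2* and *Cd28* were named in addition, after their values were seen. So were the T cell markers *Lck*, *Lat*, *Cd247* and *Cd5* and the natural killer cell markers *Il2rb*, *Ncr1*, *Gzma*, *Klrb1c* and *Prf1*.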

Additional observations from a re-analysis of the deposited data

Results flagged for a closer look

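Of the pathway genes named, 5 had a genotype difference that varied between populations in the limma F test over the 18 libraries, where 2.45% of 12421 genes did. The pathway genes had been named because they were called within a population of these same libraries, which favours such a difference. The count is therefore a description and not support. *Cd7* had an adjusted p of 1.05e-06, with a difference of log2 fold changes of -4.43 for CLPs minus MPPs (SE 0.281) and -2.51 for CD115- CDPs minus MPPs. *Cd8a* had an adjusted p of 7.50e-04 (limma), with a CLP minus MPP difference of -1.06. Its mean was 0.37 and 0.26 FPKM in WT and KO-labelled MPPs, 0.62 and 0.29 FPKM in CD115- CDPs and 1.98 and 0.32 FPKM in CLPs. It was thus under the filter within the first 2 populations and entered this fit through WT CLPs, and from the MPP level a fall as large as in CLPs was not possible on log2(FPKM + 1), so that its difference between populations supports nothing. *Itgb7* had a limma adjusted p of 0.00619 (-2.40 for CLPs minus MPPs), *Klrd1* 0.0108 (-1.70) and *Il17rb* 0.0481 (-1.56). For *Cd7* and *Klrd1*, too, a fall as large as in CLPs was not possible from the WT MPP means of 7.37 and 2.04 FPKM. The CLP minus MPP differences of *Cd7* and *Klrd1* carry that limit.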

How the results depend on the processing

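Of 526 values of single members under the alternatives, 478 kept their direction and side of the threshold, 21 lost a call, 14 gained one and 13 changed sign. The changes of sign all concerned differences that had not passed. For the KO label in MPPs, *Ikzf1* moved to 0.10 with median ratio scaling and lay between -0.19 and 0.075 with 1 library left out, above 0 without WT replicate 1 (9.40e-04), KO replicate 1 or KO replicate 2 (0.045). With 1 library left out, *Notch1* lay between -0.28 and 0.0051 and *Gata3* between -0.12 and 0.71 in CD115- CDPs, where WT replicates 1 and 3 turned the sign. In CLPs *Hes1* lay between -0.37 and 0.062, *Ikzf1* between -0.18 and 0.10 and *Gata3* between -0.014 and 0.15, turned by WT replicates 1, 1 and 2. Between WT CD115- CDPs and WT MPPs *Notch1* lay between -0.039 and 0.21 (-0.019 without MPP replicate 3), *Hes1* between -0.057 and 1.01 and *Gata3* between -0.074 and 0.65.

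The count of members called for the KO label was 0 in each population. In MPPs, leaving out 1 library gave 0 to 3, the 3 being *Hes1*, *Tcf7* and *Tox* without the library labelled KO 3. That library had the lowest *Trim33* level of the MPPs. In CD115- CDPs the replicate block gave 2 (*Tcf7*, *Cd3g*), and leaving out both replicate 3 libraries gave 2 (*Hes1*, *Cd3g*). In CLPs the count was 1 with no filter, alone or with the block (*Cd3e*), 1 with median ratio scaling and 1 with the block (*Tox*), and 0 to 1 with 1 library left out (*Tox*, without WT replicate 1). Where the share of all genes called in such a fit is not given, the count of members is a description and not support. In MPPs same-numbered libraries correlated by 0.04 to 0.48, and pair 1 was under the limit of 0.1. The block changed no call among members there (0 with and without it, 297 against 475 over all genes). Of the pathway genes named in MPPs, *Gfi1* and *Eomes* no longer passed with it (limma adjusted p = 0.0543 and 0.0808). The interaction count went from 0 to 1, *Tcf7*, without KO replicate 2 of the CD115- CDPs, in a range of 0 to 1.

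Of the 4 members called between WT CLPs and WT MPPs, 1 (*Notch1*) passed with a minimum log2 difference of 1, and 2 to 3 were called with 1 library left out, *Notch1* and *Tox* being called without MPP replicate 3 or CLP replicate 1. Of the 2 called between WT CD115- CDPs and WT MPPs, a pseudocount of 0.1 gave 1 (*Tcf7*), a filter at 5 FPKM 0, since neither gene entered the test, and leaving out 1 library 1 to 2, with *Tcf7* alone called without any 1 of the MPP libraries or CD115- CDP replicate 3. Of the 4 called between WT CLPs and WT CD115- CDPs, a filter at 5 FPKM gave 1 (*Notch1*) and leaving out 1 library 2 to 4, with *Tcf7* and *Cd3g* called without CD115- CDP replicate 2 or CLP replicate 1. Where no construction is named the cause was not tested. Median ratio scaling moved the median of all genes in MPPs from -0.11 to -0.01. Groups of 3 libraries limit every test, and values under about 0.11 FPKM for *Cd3e* and 0.16 FPKM for *Cd3g* correspond to 3 reads or fewer.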
